A study of Mus musculus with 39 samples.

Results

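Zfp genes are mouse genes for zinc finger proteins that were given the prefix Zfp and a number when they were named. A gene counted as a member when a probe set of the array carried exactly 1 symbol and that symbol was Zfp followed by digits only; Zfp36, which encodes an mRNA-destabilising protein of another finger type, was left out. This gave 304 Zfp genes, with 574 probe sets, among 18193 genes that had a probe set with 1 symbol. Within each tissue the brightest probe set stood for its gene, and a gene was tested when its mean log2 intensity over all arrays of the tissue was at or above the 30th percentile of all genes. On that rule liver had 210 tested Zfp genes, marrow 222 and spleen 237, each among 12735 genes tested. Of the 304, 186 were tested in all 3 tissues, 40 in 2, 31 in 1 and 47 in none.

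Affymetrix arrays were used to measure RNA from B6C3F1 mice, a hybrid laboratory strain, that were labelled as given reduced oxygen (hypoxia) or as controls (vehicle) for 2 hours. Liver and spleen had 8 hypoxia and 8 vehicle arrays each, and bone marrow had 4 hypoxia and 3 vehicle arrays. The mice of both groups were killed by cervical dislocation under ketamine and acepromazine anaesthesia, and tissue was taken from the right humerus (marrow), the left lateral lobe (liver) and a cross-section of the spleen. The labels name no genotype, age or sex, do not say what the vehicle was or how low the oxygen was, and do not say whether arrays came from separate mice, so that p-values measure the spread between these samples, which may be technical. Levels are log2 intensities, changes are hypoxia minus vehicle on that scale, and a gene was called higher or lower when its adjusted p in limma, over all genes tested in the tissue, was under 0.05. Levels of different probe sets, and of different tissues, are not comparable, because probe sets differ in brightness and because array medians were alike only among arrays of 1 tissue.

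Most proteins encoded by Zfp genes carry rows of C2H2 fingers, each of which folds around a zinc ion and reads a short stretch of DNA. Many also carry a KRAB domain, which recruits the co-repressor Trim28 and through it enzymes that deposit repressive histone marks, and such proteins are known for silencing endogenous retroviruses and other transposons. KRAB zinc finger genes multiplied by local duplication, so that many lie side by side in the genome and resemble each other in sequence. Others in the list are not KRAB repressors at all: Zfp622 and Zfp593 have counterparts that act in ribosome assembly in yeast, human ZNF598 marks collided ribosomes with ubiquitin, and human ZNF207 binds Bub3 at kinetochores.

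In liver, more Zfp genes fell than rose under hypoxia. Of the 210 tested, 33 were called lower (15.7%, against 7.22% of all genes tested) and 7 higher (3.33%, against 3.88%). The median change of the tested Zfp genes was -0.09, beside -0.03 over all genes, and 153 of them lay below 0 (72.9%, against 59.4%). The fall reached 1.5-fold for 15 genes, against 1.81% of all genes tested. It reached 2-fold for 5, a threshold at which no share over all genes was computed in any tissue. For 14 genes every hypoxia array was below every vehicle array (6.67%, against 1.82%). Hypoxia and vehicle arrays of the same number deviated together in liver, but only 4 of 8 hypoxia arrays correlated best with their own number. With that number as a block 61 Zfp genes were called lower, against a background of 12.9%, and 14 higher, against 5.87%. The Zfp medians of vehicle livers also differed by set, at 0.01 to 0.06 in replicates 1 to 4 and -0.05 to -0.04 in replicates 5 to 8. A term for these sets alone gave similar counts, and whether number or set lies behind the gain was not tested. In pieces of tissue such as these, fewer cells of a type and less RNA per cell cannot be told apart.

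**Figure D1:**
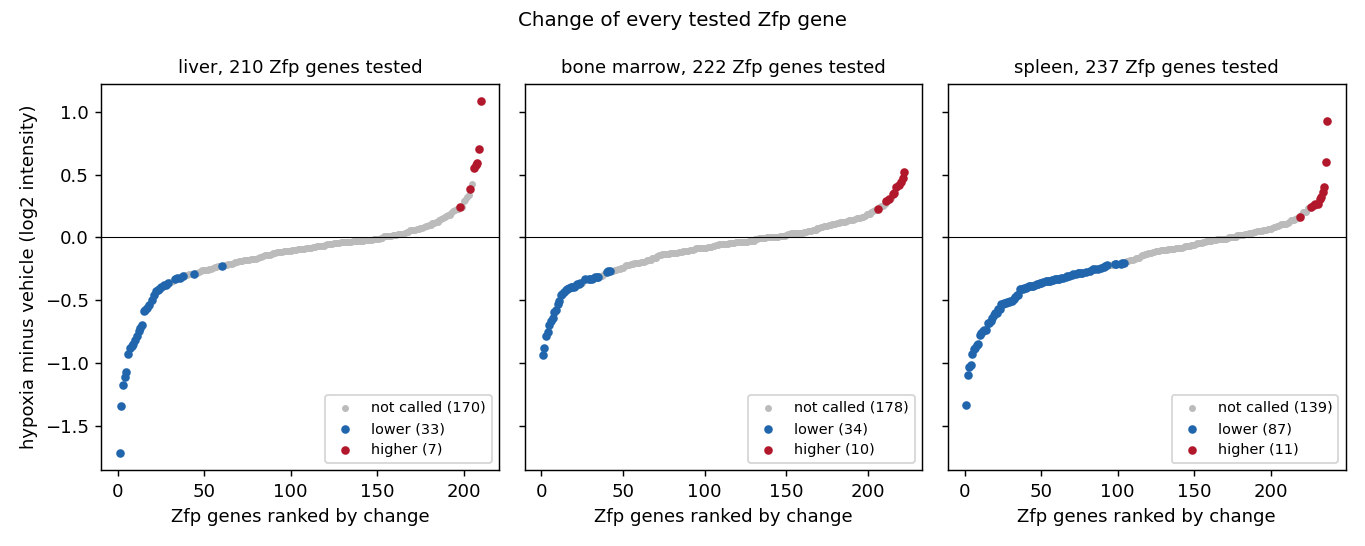
Log2 change (hypoxia minus vehicle) of every tested Zfp gene, ranked within liver, bone marrow and spleen, with genes called lower in blue, called higher in red and not called in grey. In each tissue the curve has a longer lower tail, and the genes called lower (33, 34 and 87) outnumber those called higher (7, 10 and 11).

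Zfp866 had the largest fall in liver. Its level ran over 4.32, 4.89 and 5.21 (lowest, median and highest) on the hypoxia arrays, against 6.26, 6.55 and 7.06 on the vehicle arrays. The groups were more than 1 log2 unit apart at their nearest arrays. The change was -1.71 ± 0.13 (SE), with an adjusted p of 1.91e-08. Zfp760 ran over 4.52, 4.88 and 5.16 under hypoxia, against 5.87, 6.19 and 6.47 with vehicle, again with no overlap, and fell by 1.34 ± 0.11 (adjusted p = 7.03e-08). The hypoxia means of both, 4.85 and 4.84, lay under the 4.93 needed to be tested in liver, so that these genes were tested because of their vehicle arrays, and their falls end among signals too dim to give an exact fold. The same held for Zfp58, Zfp329 and Zfp229, 5 of the 33 falls in all.

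Zfp467, known in mouse marrow stromal cells for promoting fat cell over bone cell differentiation, ran over 5.44, 6.28 and 6.58 in hypoxia livers, against 6.98, 7.29 and 7.71 in vehicle livers. The groups did not overlap, and the change was -1.17 ± 0.14 (adjusted p = 7.24e-06). Zfp950 changed by -1.11 ± 0.13 (adjusted p = 7.71e-06), also without overlap. Zfp809, a KRAB protein that binds the primer binding site of murine leukaemia viruses and recruits Trim28 to silence them, ran over 6.81, 7.14 and 7.73 in hypoxia livers, against 7.91, 8.11 and 9.35 in vehicle livers. Its fall was 2.1-fold (-1.07 ± 0.18, adjusted p = 0.000453), with all 8 hypoxia arrays below all 8 vehicle arrays, and 1 vehicle array stood well above the other 7. Zfp809 had only probe sets of types that may match several transcripts, so its fall could not be read without them. Zfp281, which takes part in the control of pluripotency genes in embryonic stem cells, changed by -0.81 ± 0.12 (adjusted p = 0.000156), and here 1 hypoxia array, at 8.26, reached into the vehicle range of 8.17 to 8.82.

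The next falls were those of Zfp707 (-0.92), Zfp101 (-0.88), Zfp629 (-0.86), Zfp825 (-0.85), Zfp62 (-0.79) and Zfp58 (-0.74), and in each of these 6 genes the hypoxia and vehicle arrays did not overlap. Zfp101 was among the tightest: the hypoxia livers averaged 5.99 ± 0.12 and the vehicle livers 6.86 ± 0.25 (SD, n = 8 each). Zfp395, whose human counterpart has been described as hypoxia-inducible and which was picked out after its value was seen, was lower in liver by 0.43. The 33 falls were spread over the range of brightness: of the tested Zfp genes ranked by mean level, 9 of the dimmest 70, 13 of the middle 70 and 11 of the brightest 70 were called lower.

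The 7 rises in liver were led by Zfp839. It ran over 7.07, 8.35 and 8.95 in hypoxia livers, against 6.80, 7.00 and 7.41 in vehicle livers, a rise of 1.08 ± 0.21 (adjusted p = 0.00157). The hypoxia arrays were widely spread, and the lowest of them lay among the vehicle arrays. The rise was 0.55 among replicates 1 to 4, where it was not called, and 1.62 among replicates 5 to 8. Zfp869 rose by 0.55 ± 0.11 (adjusted p = 0.00169), Zfp9 by 0.57, Zfp612 by 0.70, Zfp292 by 0.59, Zfp276 by 0.39 and Zfp446 by 0.24. The calls of Zfp612, Zfp292, Zfp276 and Zfp446 were lost in 7, 10, 8 and 7 of the 16 repeats that each left out 1 array, and none of the 7 rises had groups free of overlap, which 1.02% of all genes tested had in that direction. The value at the 30th percentile of each liver array was 4.16 to 4.23 in replicates 1 to 4 and 4.28 to 4.31 in replicates 5 to 8, and both sets held both groups.

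**Figure D2:**
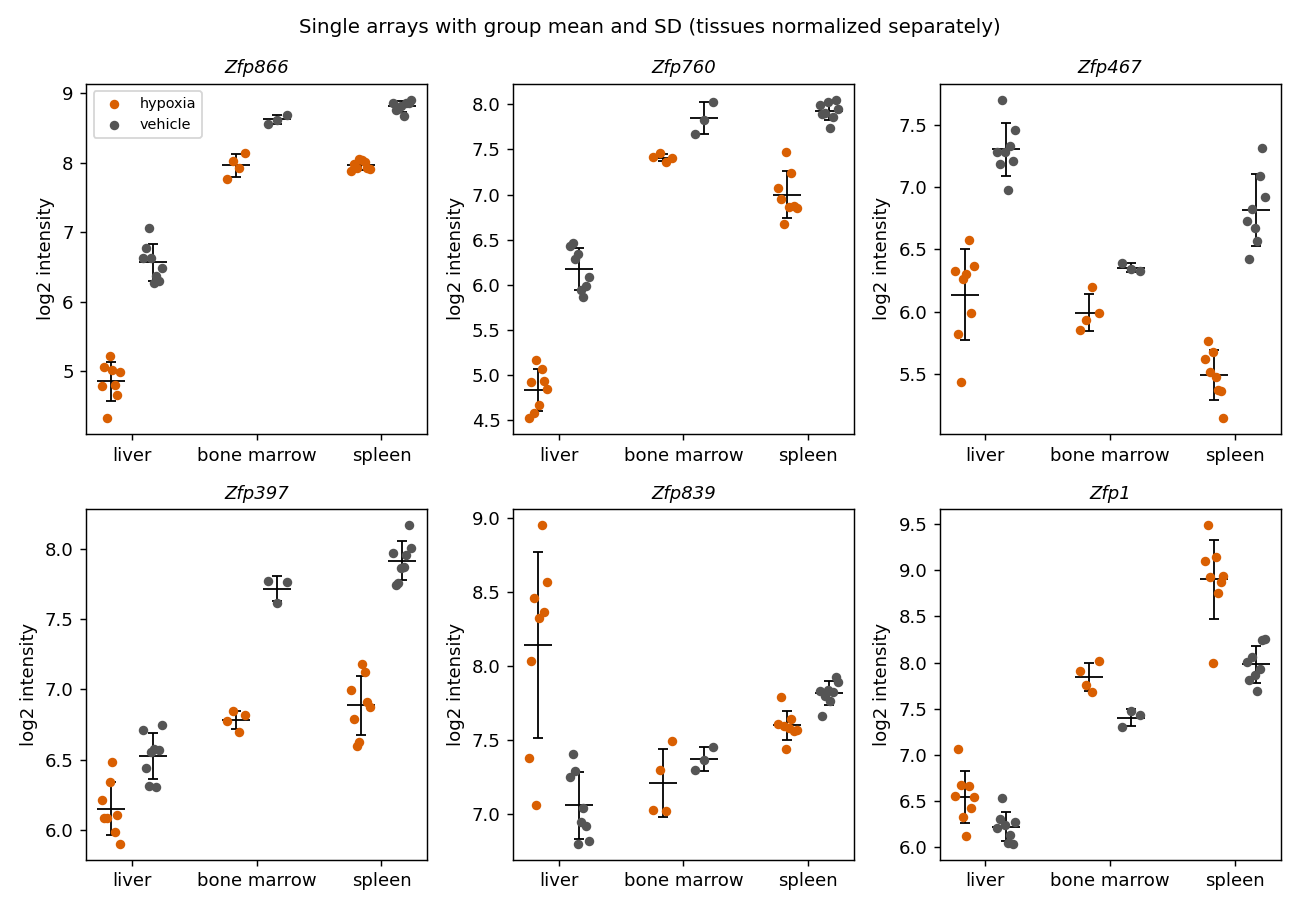
Log2 intensity on every array for 6 Zfp genes, with hypoxia arrays in orange left of vehicle arrays in grey for each tissue, and bars for the group mean and SD. Hypoxia arrays of Zfp866 and Zfp760 lie below all vehicle arrays in all 3 tissues, and Zfp839 is higher in hypoxia livers and lower in hypoxia spleens.

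The 5 Zfp genes with the highest intensities in liver, an order of probe sets and not of RNA amounts, were not called. Zfp622 averaged 11.04 ± 0.28 in hypoxia livers and 10.70 ± 0.32 in vehicle livers (SD, n = 8 each), a difference of 0.34 that was not called (adjusted p = 0.129) but was called with the replicate block (adjusted p = 0.00076). Zfp871 differed by -0.35 (adjusted p = 0.0878), and it too was called with the block (adjusted p = 0.0321). Zfp445, which in mouse protects imprinting marks, had a difference of -0.19 ± 0.20 (SE). Zfp598 had -0.08 ± 0.07 and Zfp91, a ubiquitin ligase of the non-canonical NF-kappaB pathway, 0.06 ± 0.10.

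In bone marrow more Zfp genes again fell than rose. Of 222 tested, 34 were called lower (15.3%, against 4.92% of all genes tested) and 10 higher (4.5%, against 2.76%). The median change was -0.05, beside -0.01 over all genes, and 138 lay below 0 (62.2%, against 52.7%). In 8 genes the fall reached 1.5-fold (background 0.848%), and in none did it reach 2-fold (background not computed). With 4 against 3 arrays, 57 genes had every hypoxia array below every vehicle array (25.7%, against 12.7%) and 25 had every hypoxia array above (background 7.77%).

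Zfp397 fell furthest in marrow, with 6.77, 6.85, 6.70 and 6.82 on the 4 hypoxia arrays, against 7.77, 7.62 and 7.77 on the 3 vehicle arrays. The groups lay apart by several times their own spread, and the change was -0.93 ± 0.06 (adjusted p = 0.000252). Zfp58 read 5.43, 5.49, 5.70 and 5.81 in hypoxia marrow, against 6.41, 6.47 and 6.60 in vehicle marrow, a change of -0.88 ± 0.10 (adjusted p = 0.00264). Zfp141 read 6.96, 6.86, 6.57 and 6.82 under hypoxia, against 7.79, 7.47 and 7.50 with vehicle (-0.79 ± 0.11, adjusted p = 0.00645). In both genes the hypoxia arrays were all lower than the vehicle arrays.

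Zfp52 (-0.75), Zfp429 (-0.70), Zfp866 (-0.66), Zfp809 (-0.64), Zfp790 (-0.60), Zfp217 (-0.58), Zfp930 (-0.53), Zfp950 (-0.51) and Zfp934 (-0.46) made up the rest of the 12 largest falls, each with all hypoxia arrays below all vehicle arrays. Zfp217, the counterpart of a human gene amplified in breast cancers, read 9.31, 9.50, 9.35 and 9.58 in hypoxia marrow, against 10.12, 9.89 and 10.03 in vehicle marrow. Zfp638, whose human counterpart silences unintegrated retroviral DNA, fell by 0.37, and Zfp346, a protein that binds double-stranded RNA, by 0.38.

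The 10 rises in marrow were smaller than 1.5-fold. Zfp560 read 7.83, 7.86, 7.71 and 8.08 in hypoxia marrow, against 7.21, 7.33 and 7.50 in vehicle marrow, a rise of 0.52 ± 0.10 (adjusted p = 0.0183). Zfp799 rose by 0.47, Zfp1 by 0.44, Zfp869 by 0.42 and Zfp292 by 0.40. Zfp423, which commits cells to the fat lineage and whose vehicle mean of 5.55 lay under the 5.60 needed to be tested, rose by 0.36, Zfp53 by 0.35 and Zfp110, known as neurotrophin receptor-interacting factor, by 0.31. Zfp945 (0.29) and Zfp24 (0.22) completed the list. All 10 rises had groups free of overlap, but those of Zfp799 and Zfp869 were the only ones still called after any 1 array was left out. The number of falls in marrow dropped to 18 without vehicle replicate 2 or without hypoxia replicate 2, and to 20 without hypoxia replicate 3.

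Spleen had the most calls. Of 237 Zfp genes tested, 87 were called lower (36.7%, against 12.6% of all genes tested) and 11 higher (4.64%, against 6.83%). The median change was -0.13, beside -0.01 over all genes, and 172 lay below 0 (72.6%, against 51.9%). The fall reached 1.5-fold in 21 genes (background 1.94%) and 2-fold in 4 (background not computed). In 38 genes every hypoxia array lay below every vehicle array (16%, against 3.49%). The share called lower was much the same across levels: 30 of the dimmest 79, 30 of the middle 79 and 27 of the brightest 79. Among replicates 1 to 4 alone 19 were called lower and none higher, and among replicates 5 to 8 alone 88 and 10, with medians of -0.12 and -0.19. Shares over all genes were not computed for these subsets, so the counts describe the Zfp genes alone.

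Zfp467 fell most in spleen, with 5.14, 5.49 and 5.76 (lowest, median and highest) in hypoxia spleens, against 6.43, 6.78 and 7.32 in vehicle spleens. The change was -1.33 ± 0.12 (adjusted p = 9.28e-07) on this probe set, which is of a type that may match several transcripts, and -0.67 and -0.73 on the other 2 probe sets of the gene. Zfp429 ran over 5.55, 5.92 and 6.16 in hypoxia spleens, against 6.59, 6.99 and 7.27 in vehicle spleens (-1.10 ± 0.10, adjusted p = 2.01e-06). The 2 groups were apart in both genes. Zfp397 ran over 6.60, 6.89 and 7.18 under hypoxia, against 7.74, 7.91 and 8.17 with vehicle, and fell by 1.03 ± 0.09. Zfp82 changed by -1.02 ± 0.07 (adjusted p = 5.08e-08), with a hypoxia range of 5.91 to 6.22, against a vehicle range of 6.78 to 7.27.

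The other 8 of the 12 largest falls were Zfp760 (-0.93), Zfp790 (-0.89), Zfp58 (-0.88), Zfp950 (-0.86), Zfp866 (-0.85), Zfp606 (-0.77), Zfp563 (-0.76) and Zfp275 (-0.75), none with overlapping groups. The hypoxia mean of Zfp563, 5.31, lay under the 5.38 needed to be tested in spleen, as did those of 4 smaller falls (Zfp14, Zfp27, Zfp661 and Zfp94). Zfp866 had the smallest spread of these, at 7.97 ± 0.06 in hypoxia spleens and 8.81 ± 0.08 in vehicle spleens (SD, n = 8 each), and an adjusted p of 6.36e-09. Zfp451, the counterpart of a human SUMO ligase and picked out after its value was seen, was at -0.74 on its brightest probe set. Its other probe sets above the threshold fell less (-0.29, -0.38 and -0.32). Of the 5 Zfp genes with the highest intensities in spleen 3 passed the test: Zfp871 fell by 0.25 ± 0.05, Zfp445 by 0.23 ± 0.06 and Zfp207 by 0.20 ± 0.06, the last of which lost its call in 9 of 16 repeats without 1 array. The dimmer probe sets of Zfp207 fell further in spleen (-0.64, -0.63, -0.50 and -0.35). Those of Zfp871 (-0.24 and -0.18) and Zfp445 (-0.10 and -0.03) fell less. Zfp622 (-0.08 ± 0.08) and Zfp106 (0.09 ± 0.07) were not called.

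Zfp1 rose most in spleen, and it ran over 7.99, 8.93 and 9.49 in hypoxia spleens, against 7.69, 7.96 and 8.25 in vehicle spleens. The rise was 0.92 ± 0.15 (adjusted p = 0.000407), and 1 hypoxia array lay among the vehicle arrays. Zfp53 rose by 0.60 ± 0.19 (adjusted p = 0.0336), a call that was lost in 11 of 16 repeats without 1 array. The other rises were Zfp560 (0.40), Zfp777 (0.36), Zfp628 (0.32), Zfp787 (0.31), Zfp81 (0.27), Zfp593 (0.27), Zfp110 (0.26), Zfp644 (0.24) and Zfp689 (0.16). None of the 11 had groups free of overlap (background 1.19%), and those of Zfp81, Zfp593, Zfp110 and Zfp689 also lost their call when single arrays were left out. Some of these genes had another probe set above the threshold that went down in spleen. It was at -0.18 for Zfp787, -0.06 for Zfp593, -0.18 for Zfp110, -0.08 for Zfp689 and, at the lowest, -0.62 for Zfp644. The call of Zfp787 was also lost with the mean of its probe sets.

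Cell-type markers were read beside these counts. In liver the hepatocyte markers were bright (median level 14.7) and 1 of 6, Tat, was called higher, and the neutrophil markers S100a8 and S100a9 were called higher, 2 of 5 markers tested, with summed intensities of 218 to 963.2 in hypoxia livers, against 203 to 262.4 in vehicle livers. In spleen 2 of 5 tested B cell markers were lower, Cd79b by 0.57 and Pax5 by 0.52, and the 5 summed to 6823 to 22220 in hypoxia spleens, against 16020 to 26250 in vehicle spleens. None of 5 T cell markers was called, with sums of 1496 to 4854 against 3209 to 5869, and none of 7 neutrophil markers, with sums of 7154 to 68460 against 9538 to 30040. Their directions were uniform all the same. All 5 B cell and all 5 T cell markers lay below 0 in spleen (median changes -0.48 and -0.28), and 0 of 7 neutrophil markers did (median 0.99). With the mean of the B and T cell markers as a covariate, a choice made after the data were seen, 84 Zfp genes of spleen were lower and 17 higher. The share over all genes with this covariate was not computed. In marrow no marker of these lists was called, and the neutrophil markers summed to 188200 to 205000 in hypoxia marrow, against 195600 to 208800 in vehicle marrow. The hepatocyte markers Alb, Cps1, Fgb and Tat were under the test threshold in marrow, and Cps1 and Fgb in spleen. Of 4 erythroid markers tested in liver, Tfrc, the transferrin receptor, rose by 2.22 (adjusted p = 3.52e-09) and Klf1 fell by 0.52 (adjusted p = 0.00412). Alas2 (-0.23) and Epb42 (-0.08) were not called, so that 3 of the 4 lay below 0. The markers summed to 2757 to 3595 in hypoxia livers, against 1935 to 2585 in vehicle livers, and Tfrc was the only marker that rose in this sum. No erythroid marker was called in spleen, although 0 of 5 lay below 0 there (median change 0.37). No macrophage or endothelial marker was called in any tissue. The part of the liver markers in the Zfp results was not tested.

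The falls overlapped between tissues. Of the 186 Zfp genes tested in all 3, 13 were called lower in all 3 (6.99%, against 1.22% of the 11074 genes tested in all 3), 17 in exactly 2 and 44 in 1. The change lay below 0 in every tissue for 87 of them (46.8%, against 23.3%). Liver and spleen shared 19 falls, which were 57.6% of those in liver and 21.8% of those in spleen. Liver and marrow shared 13, which were 39.4% and 38.2%. Spleen and marrow shared 32, which were 36.8% of those in spleen and 94.1% of those in marrow. Overlaps of tissue pairs were not computed over all genes, so these percentages cannot be read as particular to Zfp genes. None of the 186 Zfp genes was higher in all 3 tissues, where 46 of the 11074 genes were. That share is so small that the absence tells little about Zfp genes. Of the 186, 5 were higher in 2 tissues, a count with no share over all genes beside it.

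The 13 genes lower in liver, marrow and spleen were Zfp866, Zfp760, Zfp467, Zfp950, Zfp809, Zfp58, Zfp397, Zfp329, Zfp790, Zfp84, Zfp574, Zfp346 and Zfp758. Zfp866 changed by -1.71 in liver, -0.66 in marrow and -0.85 in spleen. Zfp58 changed by -0.74, -0.88 and -0.88 in the same order, Zfp950 by -1.11, -0.51 and -0.86, and Zfp809 by -1.07, -0.64 and -0.62. Zfp397 was read by another probe set in liver (-0.38) than in marrow (-0.93) and spleen (-1.03). The probe set used in marrow and spleen had -1.16 in liver, and the one used in liver had 0.01 in marrow and -0.18 in spleen. Zfp467, Zfp329 and Zfp84 also did not have the same probe set in all 3 tissues. The smallest of the 13 were Zfp346, with -0.40, -0.38 and -0.35, and Zfp758, with -0.31, -0.33 and -0.51. The call of Zfp758 in liver was lost in 5 of 16 repeats without 1 array, and in marrow those of Zfp329, Zfp346, Zfp467, Zfp574 and Zfp84 in 5 or 6 of 7, of Zfp790 in 4, and of Zfp760 and Zfp758 in 3. In liver Zfp84 was at -0.18 and not called without probe sets that may match several transcripts (adjusted p = 0.28), and Zfp346 at -0.18 and not called with the mean of its probe sets (adjusted p = 0.0875). No overlap of hypoxia and vehicle arrays in any of the 3 tissues was seen for Zfp866, Zfp760, Zfp467, Zfp950, Zfp809, Zfp58, Zfp574 and Zfp790.

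**Figure D3:**
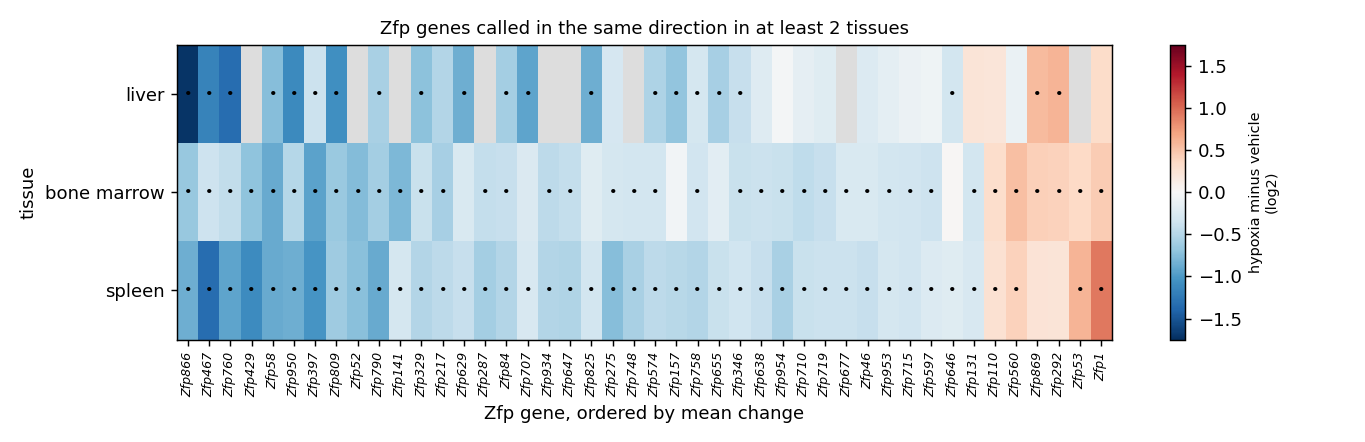
Log2 change (hypoxia minus vehicle; blue lower, red higher) of the Zfp genes called in the same direction in at least 2 tissues, ordered by mean change, with a dot where the gene was called and grey where it was not tested. Most columns are blue in all rows, Zfp866 at the left reaches -1.71 in liver, and Zfp1 at the right reaches 0.92 in spleen.

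Among the genes higher in 2 tissues, Zfp869 rose by 0.55 in liver and 0.42 in marrow, and Zfp292 by 0.59 and 0.40. Zfp1, Zfp53, Zfp560 and Zfp110 were higher in marrow and spleen, with 0.44 and 0.92 for Zfp1, 0.35 and 0.60 for Zfp53, 0.52 and 0.40 for Zfp560, and 0.31 and 0.26 for Zfp110. Opposite calls were found for 3 genes, all higher in liver and lower in spleen. Zfp839 was 1.08 in liver and -0.22 in spleen, Zfp9 0.57 and -0.33, and Zfp276 0.39 and -0.23, on different probe sets (0.37 and -0.23 on a common one). Their marrow changes were not called.

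The difference between tissues was tested directly, in a fit of all 39 arrays on probe sets common to both tissues. The response of 26 of 193 Zfp genes differed between liver and spleen (13.5%, against 9.84% of all genes tested), 10 with liver below spleen and 16 with liver above, where 5.12% and 4.73% of all genes did so. Zfp866 fell further in liver than in spleen, by 0.86 ± 0.13 (adjusted p = 1.68e-05), and Zfp101 by 0.82 ± 0.15 (adjusted p = 0.000206), with changes of -0.88 in liver and -0.06 in spleen. Zfp839 was 1.30 ± 0.22 above spleen in liver (adjusted p = 5.13e-05). Zfp40 (0.16 in liver and -0.47 in spleen) and Zfp954 (-0.04 and -0.57) were called lower in spleen, and their liver changes were not called; the brightest spleen probe set of Zfp40, used above, had -0.64. Their differences were 0.63 ± 0.10 (adjusted p = 2.98e-05) and 0.53 ± 0.09 (adjusted p = 3.22e-05).

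Liver and marrow differed in 11 of 191 genes (5.76%, against 2.76%), 8 with liver below marrow (background 1.33%) and 3 above (background 1.43%). The clearest were Zfp866 (difference -1.05 ± 0.17, adjusted p = 0.000106), Zfp760 (-0.91 ± 0.18, adjusted p = 0.00179), Zfp839 (1.25 ± 0.28), Zfp101 (-0.82 ± 0.19) and Zfp707 (-0.67 ± 0.16). Both sets of differences use the same liver arrays. Spleen and marrow differed in 0 of 214 Zfp genes, where 0.272% of all genes did. At an unadjusted p under 0.05 there were 21 (9.81%, against 7.94% of all genes), and a robust variance prior also gave 0. Marrow had 7 arrays and a median SE of 0.17 on such a difference, so that smaller differences between spleen and marrow were not detectable.

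Position in the genome was read from RefSeq's gene order (GRCm38.p6), in which 301 of the 304 were placed. A run was defined as Zfp genes separated by at most 5 other protein-coding genes: 188 had such a neighbour, and 13 runs of 5 or more held 109. Zfp genes with a neighbour were called lower in 17.1% of those tested in liver, 20.3% in marrow and 42.9% in spleen, beside 13.8%, 6.82% and 27% for Zfp genes without one. This contrast is a description without a test, since genes of a run resemble each other and their probe sets may detect each other's transcripts.

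**Figure D4:**
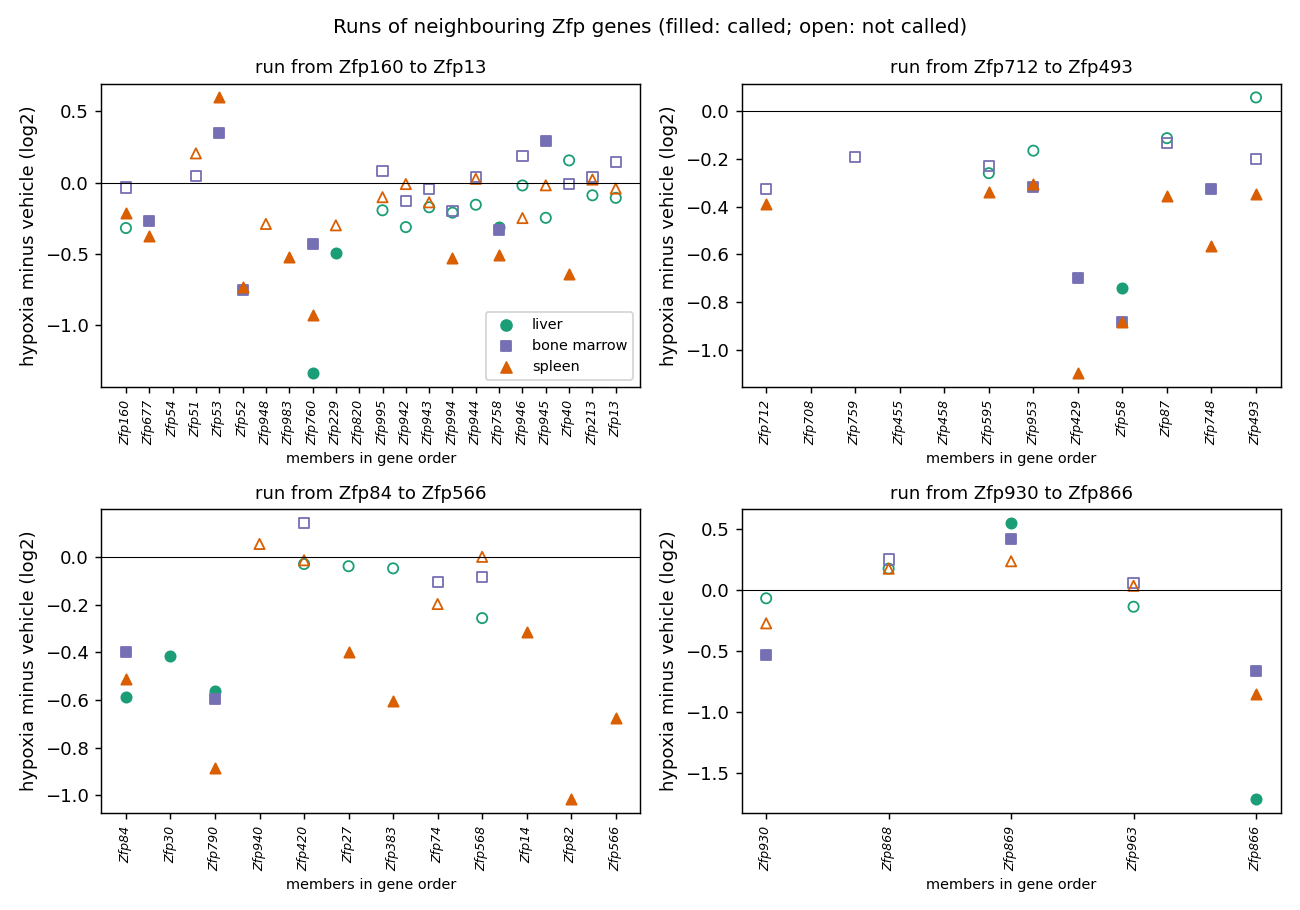
Log2 change (hypoxia minus vehicle) of each member of 4 runs of neighbouring Zfp genes, in gene order, with filled symbols for called genes and open symbols for genes not called; a gap means not tested. In the run from Zfp712 to Zfp493 all 8 spleen symbols are filled and below 0, and in the run from Zfp930 to Zfp866 the symbols of Zfp869 lie above 0 and those of Zfp866 below.

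The run from Zfp712 to Zfp493 held 12 Zfp genes, of which 8 were tested in spleen and all 8 were lower, with changes of -1.10 (Zfp429) to -0.30 (Zfp953). In marrow 4 of 9 tested were lower and in liver 1 of 5, Zfp58. In the run from Zfp84 to Zfp566, also of 12, 7 of 11 were lower in spleen, 2 of 5 in marrow and 3 of 7 in liver, led by Zfp82 and Zfp790. The longest run, from Zfp160 to Zfp13, held 22 genes and was mixed: in spleen 8 of 20 were lower and 1, Zfp53, was higher, although its neighbour Zfp52 fell by 0.73 there. The run of 9 from Zfp180 to Zfp94 had 0 calls among 6 tested in liver, 0 of 5 in marrow and 1 of 5 in spleen.

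The run from Zfp930 to Zfp866 held the largest fall and one of the rises within 5 genes. Zfp866 changed by -1.71, -0.66 and -0.85 in liver, marrow and spleen, and Zfp869 by 0.55, 0.42 and 0.24, of which the first 2 were called. Zfp930 was lower in marrow, and Zfp868 and Zfp963 were not called anywhere. The 300 bases around the start of each gene (250 before and 50 after) are shown for this pair, which lie in the same run and moved in opposite directions. They are also shown for Zfp760, the next largest fall in liver, and for Zfp758, chosen for a motif given below. Both of these lie in the longest run and fell in all 3 tissues. The sequences are RefSeq's for GRCm38.p6, written 5′ to 3′ in the direction of transcription, and capitals mark 2 motifs on either strand: ACGTG, the core bound by hypoxia-inducible factors, and the GC box GGGCGG.
Zfp866, chr8:69774862-69775161, minus strand: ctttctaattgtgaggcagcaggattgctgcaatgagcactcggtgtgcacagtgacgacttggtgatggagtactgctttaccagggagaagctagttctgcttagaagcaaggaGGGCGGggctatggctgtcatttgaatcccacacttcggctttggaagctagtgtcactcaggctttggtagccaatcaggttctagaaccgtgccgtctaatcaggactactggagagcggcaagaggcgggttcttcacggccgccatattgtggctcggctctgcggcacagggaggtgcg
Zfp869, chr8:69716853-69717152, minus strand: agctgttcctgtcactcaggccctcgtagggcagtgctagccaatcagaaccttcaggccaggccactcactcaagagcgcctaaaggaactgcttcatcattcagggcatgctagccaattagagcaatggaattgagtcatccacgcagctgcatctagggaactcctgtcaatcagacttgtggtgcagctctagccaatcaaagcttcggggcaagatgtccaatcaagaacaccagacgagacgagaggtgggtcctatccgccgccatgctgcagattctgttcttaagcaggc
Zfp760, chr17:21707491-21707790, plus strand: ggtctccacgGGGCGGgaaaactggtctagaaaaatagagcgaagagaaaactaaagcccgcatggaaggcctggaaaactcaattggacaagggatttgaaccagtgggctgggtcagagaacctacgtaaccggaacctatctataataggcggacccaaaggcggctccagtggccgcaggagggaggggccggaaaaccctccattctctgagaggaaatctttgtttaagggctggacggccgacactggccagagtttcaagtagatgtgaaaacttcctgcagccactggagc
Zfp758, chr17:22361213-22361512, plus strand: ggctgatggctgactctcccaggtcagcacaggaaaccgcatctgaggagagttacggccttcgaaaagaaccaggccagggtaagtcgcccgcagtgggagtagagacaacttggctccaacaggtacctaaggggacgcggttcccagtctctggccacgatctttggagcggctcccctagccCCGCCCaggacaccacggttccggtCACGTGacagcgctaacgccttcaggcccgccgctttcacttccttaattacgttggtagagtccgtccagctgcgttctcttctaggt

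Zfp866 and Zfp760 each had 1 GC box and no ACGTG, and Zfp869 had neither. Zfp758 had 1 GC box and a CACGTG, an E-box that contains ACGTG on both strands and was therefore counted 2 times. Zfp758 was printed because, among the genes lower in all 3 tissues, only its promoter held ACGTG. Promoters were given for 249 of the 304 Zfp genes, 306 promoters in all. ACGTG stood in 20.9% of them, and likewise in 20.9% of 21263 promoters of protein-coding genes. It stood in 17.2% of 99 promoters of Zfp genes called lower in any tissue, in 22.5% of 142 promoters of those tested and called nowhere, and in 1 of 13 promoters of the genes lower in all 3. GGGCGG stood in 46.7% of Zfp promoters and 46.2% of all. CCGGAAG, a motif bound by ETS factors, stood in 20.3% of Zfp promoters and 11.6% of all, with 16.2% in those of the genes called lower in any tissue. Among promoters of Zfp genes tested and called nowhere it stood in 21.1%, and in 0 of 13 of the genes lower in all 3. A match describes the letters of the window only.

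Many Zfp genes were read by more than 1 probe set. In liver 60 tested genes had 2 or more probe sets above the threshold, and in 37 all of them changed in the same direction. The numbers were 48 of 83 in marrow and 61 of 93 in spleen. Among called genes all probe sets had the same direction in 14 of 16 in liver, 14 of 18 in marrow and 33 of 41 in spleen. The exceptions included Zfp397 in marrow, where the second probe set was at 0.01 beside -0.93, and Zfp655, where the chosen probe set was at -0.58 in liver and -0.38 in spleen and another at 0.25 and 0.32. Zfp644 in spleen had 0.24 on the chosen probe set and -0.62 on another, and Zfp24 in marrow 0.22 and, at the lowest, -0.49. Without probe sets of the types _s_at, _x_at and _a_at, which may match several transcripts, Zfp110 was at -0.04 in marrow and -0.18 in spleen in place of a rise. Zfp809, Zfp593 and Zfp628 had no probe set of another type, so their calls could not be repeated in this way.

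Other zinc finger families were set beside the Zfp genes. Of all genes tested, 7.22% were lower and 3.88% higher in liver, 4.92% and 2.76% in marrow, and 12.6% and 6.83% in spleen. The Zbtb family, whose proteins join C2H2 fingers to a BTB domain, had 8 lower and 2 higher of 34 tested in liver, 5 and 2 of 37 in marrow, and 15 and 3 of 37 in spleen. Zbtb18 fell by 0.98 in spleen, and Zbtb26 by 0.76 in marrow and 0.78 in spleen. Zbtb16, known for directing innate-like lymphocyte fates, rose by 1.67 in marrow and 1.27 in spleen. The Zscan and Zkscan genes, with a SCAN domain, had 6 lower and 0 higher of 18 in liver, 1 and 1 of 17 in marrow, and 4 and 0 of 16 in spleen, with Zkscan8 at -0.94 in liver. The Zc3h genes, whose fingers are of the CCCH type and mostly bind RNA, had no call among 12 in liver, 1 lower and 1 higher of 12 in marrow, and 4 lower and 1 higher of 14 in spleen.

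**Figure D5:**
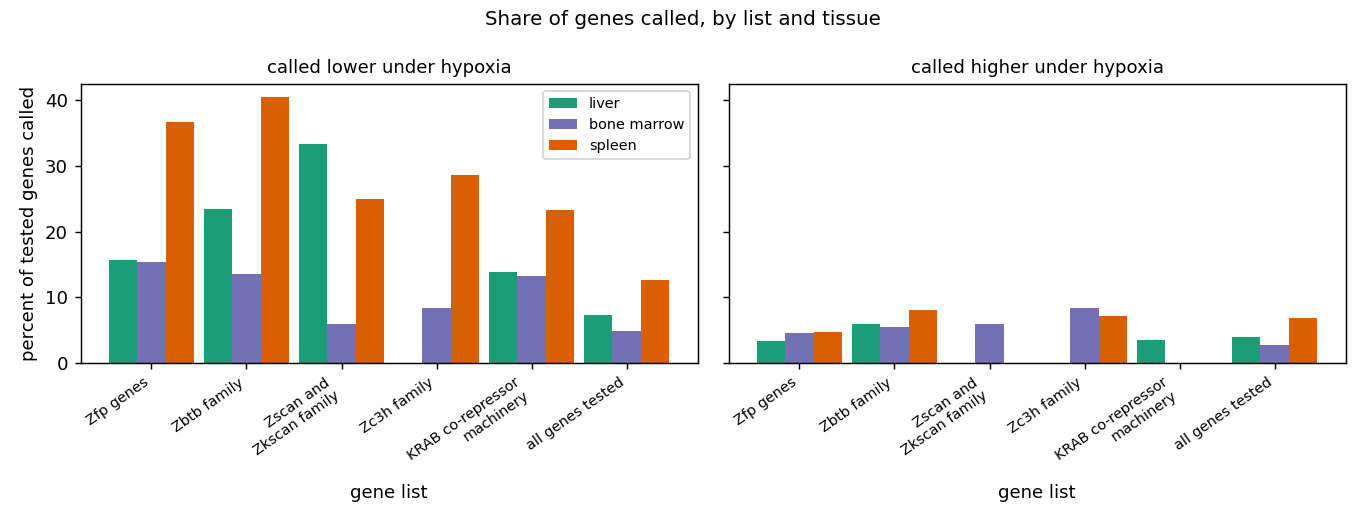
Percent of tested genes called lower (left) and higher (right) in liver, bone marrow and spleen, for Zfp genes, 3 other zinc finger families, the KRAB co-repressor genes and all genes tested. The bars of Zfp genes called lower stand at 15.7%, 15.3% and 36.7%, beside 7.22%, 4.92% and 12.6% for all genes, and the bars of the Zbtb family at 23.5%, 13.5% and 40.5%.

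Some of the co-repressor genes through which KRAB proteins act were also lower. Of 29 tested in liver 4 were lower (13.8%, against 7.22% of all genes) and 1 higher (background 3.88%). Of 30 in marrow 4 were lower (13.3%, against 4.92%) and 0 higher (background 2.76%), and of 30 in spleen 7 were lower (23.3%, against 12.6%) and 0 higher (background 6.83%). Atf7ip, a partner that stabilises the histone methyltransferase Setdb1, was lower in all 3 tissues, by 0.77 in liver, 0.44 in marrow and 0.22 in spleen. Setdb1 itself was lower in marrow, by 0.28. Trim28, the co-repressor that KRAB domains recruit, was not called in liver (-0.13) or marrow (-0.04). Senp7, a SUMO protease that acts on heterochromatin proteins, fell by 0.50 in marrow and 0.59 in spleen, and Mphosph8, a member of the HUSH silencing complex, by 0.59 in spleen. Cbx5, the heterochromatin protein HP1 alpha, was lower in liver by 0.52. Morc3, a nuclear ATPase with a role in silencing transposons, was higher in liver by 0.61 and lower in spleen by 0.34.

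Across the arrays, the median of all tested Zfp genes relative to the vehicle mean was -0.14 to -0.04 in hypoxia livers and -0.05 to 0.06 in vehicle livers. These ranges overlapped, and in all 8 pairs of the same number the hypoxia array lay below the vehicle array. The median over all genes tested was also lower on the hypoxia array of every pair (-0.07 to -0.003 against -0.04 to 0.07). This order of pairs is therefore not particular to Zfp genes. In marrow the Zfp median was -0.06 to -0.03 on the hypoxia arrays and -0.01 to 0.02 on the vehicle arrays, with no overlap. The all-gene median there was -0.02 to 0.006 and -0.007 to 0.007. In spleen the Zfp median was -0.23 to -0.09 under hypoxia and -0.13 to 0.10 with vehicle, where vehicle replicate 2 lay within the hypoxia range. The all-gene median in spleen was -0.04 to 0.009 and -0.09 to 0.04. The lower and upper quartiles of the change over the tested Zfp genes were -0.25 and 0.01 in liver, -0.21 and 0.06 in marrow, and -0.33 and 0.02 in spleen, so that members above and below 0 were found in every tissue.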

How the data were processed

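RNA of 39 mouse tissue samples was measured on Affymetrix arrays after one-cycle labelling, with marrow RNA from a Paxgene kit and liver and spleen RNA from Qiagen columns, per the labels' protocols. The deposited values are probe set intensities on a linear scale from 5.78 to 43830, and RMA and limma are named, per the submitters' processing notes, without versions. No depth applies to arrays: the number of arrays limits precision. Intensities of 45101 probe sets were turned into log2, with 64 control probe sets, 932 with several symbols and 9160 with none left out. Array medians were 5.21 to 5.34 in liver, 6.22 to 6.29 in marrow and 6.16 to 6.20 in spleen. Hypoxia and vehicle were compared in a separate limma model per tissue (limma 3.58.1, R 4.3.3), without covariates, with Benjamini-Hochberg adjustment over its 12735 genes; differences between tissues came from 1 fit of 6 groups. The code was tested on simulated data.

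Same-numbered hypoxia and vehicle arrays correlated at 0.166 to 0.535 in liver (8 pairs, all over 0.1), so the numbers met the rule for pairs there. Only 4 of the 8 hypoxia livers correlated best with the vehicle array of their own number. All values and p-values of liver are nevertheless from the model without the pairs, except where the block is named. The correlations were -0.0267 to 0.322 in marrow and -0.478 to 0.313 in spleen, where the numbers did not meet that rule. Pairing rests on the replicate numbers in the titles and this check, since no label names a shared animal.

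Named genes were the 12 largest called rises and falls per tissue, genes called in 2 or more tissues, the 5 smallest adjusted p per difference between tissues, the 5 brightest per tissue, and up to 4 called genes of each other list. The members and lists were chosen with earlier results of these data known. Alternatives covered the probe set of a gene, the filter on dim genes, normalization, variance prior, replicate block and sets, and single arrays.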

Additional observations from a re-analysis of the deposited data

Results flagged for a closer look

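Single arrays stood apart from the rest of their group in 11 of the 236 groups of named genes examined, where chance gives about 1 in 20. On the high side of their group were Zfp809 in liver vehicle replicate 3 (log2 intensity 9.35), Zfp646 in the same array (7.34), Zfp281 in liver hypoxia replicate 4 (8.26), Zfp110 and Zfp597 in spleen vehicle replicate 1 (9.12 and 8.46), Zfp934 in spleen hypoxia replicate 2 (7.72) and Zfp287 in bone marrow hypoxia replicate 1 (6.18). On the low side were Zfp606 in spleen hypoxia replicate 4 (5.10), Zfp787 in spleen vehicle replicate 5 (6.41), and Zfp445 and Zfp715 in spleen vehicle replicate 2 (10.88 and 8.95). Spleen vehicle replicate 2 was also the vehicle array whose median over the tested Zfp genes lay within the hypoxia range.

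Responses that differed between liver and spleen by the test of the difference were those of Zfp866 (-0.86, liver minus spleen, log2), Zfp40 (0.63), Zfp954 (0.53), Zfp839 (1.30) and Zfp101 (-0.82). Between liver and bone marrow they were those of Zfp866 (-1.05, liver minus bone marrow), Zfp760 (-0.91), Zfp839 (1.25), Zfp101 (-0.82) and Zfp707 (-0.67).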

How the results depend on the processing

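The median change of the tested Zfp genes stayed below 0 in all 3 tissues under every setting run, while the number called depended on the settings listed here, for causes that were not tested. With the replicate block liver had 61 lower and 14 higher and marrow 5 higher, and with the replicate set as a term liver had 64 and 14. The block ended 20 calls among 152 results of single genes examined, which include bright genes that were not called in the main fit. The mean of all probe sets ended 23 among 151 and reversed 2, and replicates 1 to 4 alone ended 55 among 94. Replicates 1 to 4 alone gave 19 lower in liver, and 19 lower and 0 higher in spleen. A filter at the 50th percentile, which tests fewer genes, gave 52 lower in spleen, and 9 and 6 genes that differed between liver and spleen and between liver and marrow; no filter gave 1 for spleen and marrow. The mean of all probe sets gave 6 higher in spleen, the B and T cell covariate 17, and centring each array a median of -0.0761 in marrow. Of these settings only the liver block has its share over all genes given, so the other counts describe the Zfp genes alone.

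Zfp24 in marrow (-0.0917) and Zfp644 in spleen (-0.0848) turned below 0 with the mean of probe sets, and Zfp110 in marrow (-0.0437) and spleen (-0.18) without probe sets that may match several transcripts.

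Leaving out each array gave 29 to 42 lower and 4 to 7 higher in liver (4 without hypoxia replicate 4 or 7 or vehicle replicate 8), and 18 to 31 lower and 2 to 8 higher in marrow (18 lower without vehicle or hypoxia replicate 2, 20 without hypoxia replicate 3). Rises in marrow were 4 without vehicle replicate 1, 2 without vehicle replicate 2, and 6, 3 and 5 without hypoxia replicates 1, 2 and 3. Spleen had 79 to 93 lower and 6 to 12 higher (6 without vehicle replicate 6, and 7 without vehicle replicate 3 or 5 or hypoxia replicate 1, 2, 3 or 8). Medians ran from -0.11 to -0.08 in liver, -0.07 to -0.04 in marrow and -0.16 to -0.12 in spleen. Differences between liver and spleen numbered 20 to 31, between liver and marrow 6 to 16 (6 without marrow vehicle replicate 1, and 7 without marrow hypoxia replicate 3), and between spleen and marrow 0.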
